A study of Mus musculus with 45 samples.

Results

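The pluripotency-associated genes Dppa2, Dppa3, Dppa4, Dppa5a, Lin28a, Lin28b, Tcl1, Utf1 and Tdh were followed in RNA-seq of mouse embryonic stem cells (ESCs). They were chosen by symbol, and all 9 were found among the 33924 genes listed in each of 2 tables of regularized log (rlog) values. An rlog value is a read count scaled for library size and put on a log2 scale, on which low counts are pulled toward the mean of the gene. The cells were feeder-free ESCs grown with LIF, and in every RNA-seq sample at least 1 allele of the long noncoding RNA locus 5430416N02Rik was replaced. In ΔG cells (G in the labels) the gene body was exchanged for a GFP and puromycin cassette, and in ΔPG cells (PG) the promoter and the gene body were exchanged for a puromycin cassette driven by the PGK promoter. Heterozygous (het) and homozygous (hom) cells of each design received either DMSO, which left them undifferentiated (ES), or retinoic acid at 2 µM (RA), in both cases for 48 h, with 3 samples in each of the 8 groups. The clone behind each library is not given in the sources used here, so clone and genotype cannot be told apart, and the p-values below measure the spread between these samples. No wild-type RNA-seq sample was analysed here, and the ΔG and ΔPG tables were normalized separately, so no test was made between them.

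As background, LIN28A and LIN28B are RNA-binding proteins that hold back the maturation of let-7 microRNAs, which in turn repress both Lin28 genes and rise as cells differentiate. TCL1 is a coactivator of the kinase AKT, and TDH, threonine dehydrogenase, starts the breakdown of threonine to glycine and acetyl-CoA that mouse ESCs depend on. DPPA2 and DPPA4 are chromatin proteins that act as a pair and switch on Dux and genes of the 2-cell-like state, while DPPA3 (Stella) is a maternal factor that holds back the DNA methylation cofactor UHRF1. DPPA5A is an RNA-binding protein with a KH domain, and UTF1 is a chromatin-associated protein of undifferentiated cells. Retinoic acid acts through nuclear receptors and takes ESCs out of the pluripotent state.

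Since LIN28 proteins act on let-7, the hairpin of let-7g (RefSeq, GRCm38.p6, chr9:106178840-106178927, plus strand) is shown with the GGAG that LIN28 proteins are known to bind in capitals, above the mature forms of let-7g, let-7a and let-7i with their shared seed (bases 2 to 8) in capitals.
let-7g hairpin: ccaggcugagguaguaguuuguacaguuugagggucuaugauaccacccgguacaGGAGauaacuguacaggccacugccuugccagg
let-7g-5p: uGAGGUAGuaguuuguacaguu
let-7a-5p: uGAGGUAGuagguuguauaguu
let-7i-5p: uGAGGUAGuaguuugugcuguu
The same seed was found in all 9 mature 5p names of the let-7 and miR-98 genes, and GGAG lay between the arms in 8 of the 11 hairpins for which both arms were given. Mature microRNAs were not measured in these libraries. The 8 let-7 genes listed in the tables, taken up after their values were seen, stood between -2.26 and 1.92 in ΔG and between -1.77 and 2.27 in ΔPG, with 2 of them at 0 in every ΔG sample and 3 in every ΔPG sample. Rows at 0 in every sample did not vary and were not tested, so their 0 is not read here as a level above the negative values.

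Several of the Dppa transcripts have near-identical copies in the genome, which bears on how their reads could be assigned. On NCBIM37, loci that matched at least 50% of the longest transcript at 90% identity or more numbered 7 for Dppa5a, 4 for Dppa2, 2 each for Dppa3 and Dppa4 and 1 for Tdh. No such locus was found for Lin28a, Lin28b, Tcl1 or Utf1. The annotated copy Dppa5b lies on the same chromosome as Dppa5a, and their exon 2 sequences, both coding, are shown with the bases that differ in capitals. Dppa5a lies on the minus strand at chr9:78215528-78215710, and the stretch of Dppa5b on the plus strand at chr9:78093553-78093735.
Dppa5a: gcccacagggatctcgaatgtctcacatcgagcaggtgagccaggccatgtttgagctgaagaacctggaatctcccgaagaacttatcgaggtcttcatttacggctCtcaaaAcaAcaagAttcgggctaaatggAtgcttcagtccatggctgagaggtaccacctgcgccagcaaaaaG
Dppa5b: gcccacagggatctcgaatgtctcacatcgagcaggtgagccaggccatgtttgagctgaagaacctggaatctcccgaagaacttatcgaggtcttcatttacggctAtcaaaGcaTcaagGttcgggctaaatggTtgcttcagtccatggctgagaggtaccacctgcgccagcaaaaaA
They differ at 6 of 183 bases (96.7% identity). Reads of Dppa5a and of the other members with copies, Tdh among them, could thus be split or lost in counting, and their levels are uncertain to that extent.

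Promoter windows were held by the RefSeq table for Lin28a, Lin28b, Tcl1 and Utf1. The table gives 1 start per gene, and for Lin28a and Lin28b the window lies inside the span of the annotated gene, which has a start farther upstream. The 250 bases before the given start are shown for Tcl1 (chr12:105222738-105222987, minus strand) and Lin28a (chr4:134018817-134019066, minus strand) on GRCm38.p6, because these genes moved in opposite directions under RA, with CG dinucleotides in capitals.
Tcl1: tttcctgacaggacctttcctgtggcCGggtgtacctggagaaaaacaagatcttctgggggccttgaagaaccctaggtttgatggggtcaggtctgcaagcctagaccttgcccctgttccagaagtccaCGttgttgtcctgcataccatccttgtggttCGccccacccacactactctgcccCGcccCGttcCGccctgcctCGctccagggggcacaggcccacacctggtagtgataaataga
Lin28a: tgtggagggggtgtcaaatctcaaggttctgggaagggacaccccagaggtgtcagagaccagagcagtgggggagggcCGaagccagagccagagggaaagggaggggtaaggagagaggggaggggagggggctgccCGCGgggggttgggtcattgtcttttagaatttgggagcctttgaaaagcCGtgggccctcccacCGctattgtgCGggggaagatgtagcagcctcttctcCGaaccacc
Both windows hold 7 CG dinucleotides, against a median of 6 over 32851 windows of this length, and the windows of Utf1 and Lin28b hold 14 and 6. The following sites were searched on both strands. The POU octamer ATGCAAAT is held by 1.6% of all windows, the SOX site CATTGTT by 3.29%, the KLF site GGGNGTGG by 15.9%, the ESRRB site TCAAGGTCA by 0.387% and the core site of nuclear receptors AGGTCA, which the ESRRB site contains, by 14%. None of these letters was found in the windows of the 4 genes, which says only that they are not in these 250 bases.

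In the check of the targeted gene, 5430416N02Rik was lower in hom than in het cells in each of the 4 comparisons, with log2 differences of -2.79 (ES ΔG), -2.75 (RA ΔG), -2.30 (ES ΔPG) and -1.81 (RA ΔPG). Of the genes listed, 22048 varied in the ΔG and 21979 in the ΔPG table and were tested, and the read depth per sample is unknown. Calls required an adjusted p (limma, Benjamini-Hochberg) below 0.1 together with mean rlog values more than 0.5 apart. An exact permutation test of 3 against 3 samples cannot go below a two-sided p of 0.1 and was not used. Of 15 pluripotency markers tested, 14 fell under RA in both ΔG genotypes and in het ΔPG cells and 13 in hom ΔPG cells. Their summed log2 level was 14.09 to 14.16 in ES and 10.90 to 11.10 in RA samples of the ΔG table. All 10 RA-induced genes and all 12 primitive endoderm markers rose in each of the 4 RA comparisons. Of all tested genes, 16.5% to 18.0% were called higher and 11.3% to 13.6% lower in these comparisons. Of 5 tested 2-cell-like markers, which include the near-identical Zscan4c, Zscan4d and Zscan4f, 5 rose in het ΔG and 4 in each other comparison. Of 8 fibroblast markers, 7, 5, 5 and 7 rose (het ΔG, hom ΔG, het ΔPG, hom ΔPG), and 1 fell in either ΔPG genotype. In bulk RNA, fewer cells of a type and less RNA per cell cannot be told apart.

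In undifferentiated cells Dppa5a had the highest level of the 9 genes and Dppa3 the lowest. To compare genes, the log2 of the exonic length in kb was subtracted from the rlog value, and on this scale the order in ES het ΔG cells was Dppa5a (12.69), Tdh (8.83), Tcl1 (8.21), Dppa2 (7.74), Dppa4 (7.32), Lin28a (6.77), Utf1 (5.40), Lin28b (2.21) and Dppa3 (1.80). No neighbours in that order overlapped in their samples. In ES hom ΔG cells the order was the same, but Dppa4 and Lin28a overlapped. In ES het ΔPG cells Lin28a (7.48) stood above Dppa2 (6.84) and Dppa4 (6.83), which overlapped, while in ES hom ΔPG cells Dppa2 (7.49) stood above Lin28a (7.25). Under RA the second place was held by Lin28a in all 4 groups, with 8.31 and 8.44 in het and hom ΔG cells and 8.18 and 8.28 in het and hom ΔPG cells. Tdh had dropped to the eighth place in ΔG cells (3.63 and 3.66) and to the fifth in ΔPG cells (4.66 and 4.47). In hom cells these places were not separate, as Tdh overlapped Tcl1 in ΔG and both Lin28b and Utf1 in ΔPG. Utf1 and Lin28b overlapped in each of the 4 groups, and Tcl1 overlapped both of them in het cells of either design. In hom cells Tcl1 stood lower, at 4.08 in ΔG and 3.86 in ΔPG, and overlapped neither. Dppa3 stayed the lowest, between 0.89 and 1.80 on this scale in every group.

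**Figure D1:**
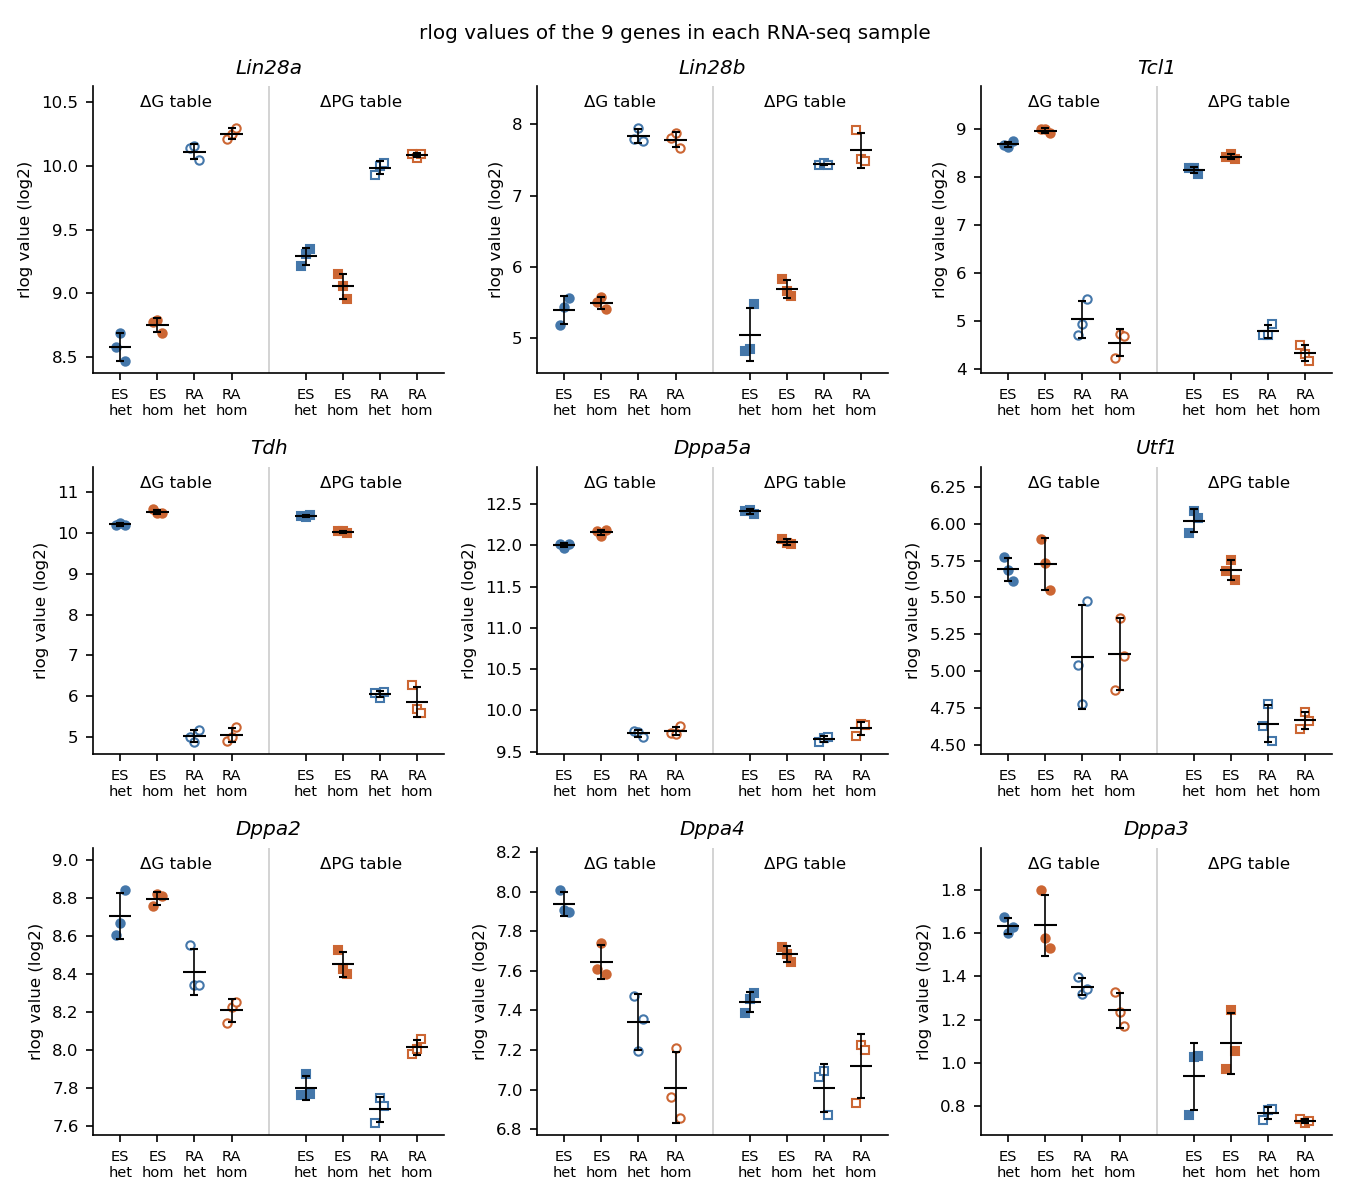
Each panel plots the rlog value (log2 scale) of 1 gene in every RNA-seq sample, with het samples in blue, hom samples in orange, ES samples filled and RA samples open, circles for the ΔG and squares for the ΔPG table. Bars give the mean and SD of 3 samples. Lin28a and Lin28b stand higher in all RA samples than in all ES samples of their table, and Tcl1, Tdh and Dppa5a lower. The vertical axes differ between panels and do not start at 0.

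The first question was how the 9 genes responded to RA in each of the 4 cell lines. Both Lin28 genes rose, and Tcl1, Tdh, Dppa5a and Utf1 fell, in every comparison. Dppa4 fell in 3 of them, Dppa2 in 1, and Dppa3 in none. In het ΔG cells 2 members were called higher and 5 lower, beside 17.7% of all tested genes called higher and 11.7% called lower. In hom ΔG cells the counts were 2 and 6, beside 17.0% and 12.1%. In het ΔPG cells they were 2 and 4, beside 18.0% and 13.6%, and in hom ΔPG cells 2 and 5, beside 16.5% and 11.3%. The het and hom comparisons of a table use separate samples, but the members were chosen as pluripotency-associated genes with results of these data known, so the counts describe these genes.

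Lin28a (chr4:133559245-133574756 on NCBIM37) had rlog values of 8.58, 8.69 and 8.47 in ES het ΔG samples and 10.14, 10.16 and 10.04 in RA het ΔG samples. In hom ΔG cells the values were 8.78, 8.79 and 8.69 in ES and 10.21, 10.25 and 10.30 in RA. The groups lay far apart in both genotypes, with a rise of 1.54 ± 0.06 (SE, adjusted p = 8.85e-11) in het and 1.5 ± 0.05 (adjusted p = 7.86e-15) in hom cells. In ΔPG cells the values were 9.22, 9.31 and 9.35 in ES het and 9.15, 9.06 and 8.96 in ES hom samples. After RA it reached 9.93, 10.00 and 10.03 in het and 10.09, 10.07 and 10.09 in hom samples. The rise was 0.70 ± 0.04 (adjusted p = 4.80e-06) in het and 1.03 ± 0.05 (adjusted p = 1.14e-08) in hom cells.

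Lin28b (chr10:45096426-45206201), the larger of both genes, started at a far lower level. Its values were 5.18, 5.43 and 5.56 in ES het and 5.50, 5.57 and 5.40 in ES hom ΔG samples, and 7.79, 7.94 and 7.77 in RA het and 7.82, 7.88 and 7.67 in RA hom ΔG samples. This was a rise of 2.44 ± 0.10 in het (adjusted p = 2.39e-10) and 2.30 ± 0.09 in hom cells (adjusted p = 4.56e-13). In ΔPG the ES het samples had 4.82, 4.84 and 5.48, of which the last stands apart from the others, and the ES hom samples 5.83, 5.65 and 5.59. After RA the het samples had 7.43, 7.45 and 7.43 and the hom samples 7.91, 7.51 and 7.48. The rise was 2.39 ± 0.17 (adjusted p = 1.23e-05) in het and 1.94 ± 0.12 (adjusted p = 9.68e-08) in hom ΔPG cells, and no ES sample overlapped an RA sample.

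Tcl1 (chr12:106454967-106460947) fell steeply. In ΔG its ES values were 8.67, 8.64 and 8.75 in het and 8.99, 9.0 and 8.91 in hom samples. The RA values were 4.71, 4.94 and 5.48 in het and 4.24, 4.73 and 4.70 in hom samples, which overlapped. The fall was -3.64 ± 0.15 in het (adjusted p = 1.57e-10) and -4.41 ± 0.11 in hom cells (adjusted p = 9.59e-16). In ΔPG the ES values were 8.19, 8.19 and 8.07 in het and 8.42, 8.48 and 8.38 in hom samples, and the RA values 4.71, 4.73 and 4.94 in het and 4.52, 4.33 and 4.17 in hom samples. There the het and hom samples did not overlap in ES or in RA, and the fall was -3.35 ± 0.08 (adjusted p = 4.54e-08) in het and -4.09 ± 0.10 (adjusted p = 6.35e-11) in hom cells.

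Tdh (chr14:64111184-64127929) showed the steepest fall of the 9 genes in each comparison. In ΔG its values went from 10.21, 10.26 and 10.19 (ES het) to 5.00, 4.87 and 5.17 (RA het), and from 10.58, 10.50 and 10.49 (ES hom) to 4.89, 5.00 and 5.25 (RA hom). The differences were -5.20 ± 0.08 (adjusted p = 1.72e-14) and -5.47 ± 0.08 (adjusted p = 7.38e-19). In ΔPG the values went from 10.42, 10.41 and 10.45 to 6.08, 5.96 and 6.11 in het and from 10.04, 10.05 and 10.00 to 6.28, 5.69 and 5.59 in hom samples. Here the differences were -4.37 ± 0.04 (adjusted p = 1.30e-09) and -4.18 ± 0.14 (adjusted p = 7.97e-10), and the RA hom samples were more spread than any other Tdh group.

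Dppa5a (chr9:78214859-78215984) fell by less but from the highest level. Its ES values lay between 11.97 and 12.18 in ΔG and between 12.01 and 12.43 in ΔPG, and its RA values between 9.61 and 9.83 over both tables. The differences were -2.28 ± 0.03 (adjusted p = 1.16e-14) in het ΔG, -2.41 ± 0.03 (adjusted p = 6.73e-20) in hom ΔG, -2.76 ± 0.02 (adjusted p = 7.92e-10) in het ΔPG and -2.26 ± 0.04 (adjusted p = 4.42e-12) in hom ΔPG cells. Its copy Dppa5b was low in ΔG, with a highest value of 3.07. In ΔPG it varied strongly between samples of a group, with 9.92, 6.18 and 4.97 in ES het samples, 6.80, 4.06 and 3.16 in ES hom samples, 2.55, 2.77 and 2.60 in RA het samples and 3.27, 4.53 and 2.80 in RA hom samples. In the same ES samples of ΔPG, Dppa5a had 12.41, 12.43 and 12.38 in het and 12.08, 12.03 and 12.01 in hom cells.

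Utf1 (chr7:147129688-147131011) fell in ΔG cells, with differences of -0.60 ± 0.15 (adjusted p = 0.00444) in het and -0.61 ± 0.14 (adjusted p = 9.37e-04) in hom ΔG cells. Its RA values in ΔG were widely spread, with 5.04, 4.77 and 5.47 in het and 4.87, 5.36 and 5.10 in hom samples, and without RA het replicate 2 or RA hom replicate 1 the differences were -0.44 and -0.49 and no longer called. Both ΔG calls also ended with the exonic length trend removed (-0.44 and -0.41), while with the GC trend removed the differences were -0.92 in het and -0.97 in hom cells. In ΔPG the differences were -1.38 ± 0.09 (adjusted p = 8.11e-06) in het and -1.02 ± 0.11 (adjusted p = 8.79e-06) in hom cells, with RA values between 4.52 and 4.78, and were -1.14 and -1.31 with the GC trend removed.

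Dppa4 (chr16:48283848-48294405) and its neighbor and partner Dppa2 (chr16:48310590-48319836) changed little. Dppa4 fell, with differences of -0.60 ± 0.08 (adjusted p = 2.35e-05) in het ΔG, -0.64 ± 0.09 (adjusted p = 1.26e-05) in hom ΔG and -0.56 ± 0.08 (adjusted p = 1.26e-04) in hom ΔPG cells, and its difference in het ΔPG cells was -0.43 ± 0.07, under the limit. Once the trend with exonic length was removed, these 3 values of Dppa4 were -0.49, -0.49 and -0.41 and no longer called. The call in hom ΔPG cells also ended without RA hom replicate 1 (-0.47) and with limits of 0.05 and 1.5-fold. Dppa2 was called in hom ΔG cells, where it fell by 0.59 ± 0.06 (adjusted p = 9.16e-08). Its other differences were -0.29 ± 0.07 in het ΔG, -0.44 ± 0.05 in hom ΔPG and -0.11 ± 0.05 in het ΔPG cells, of which the last ranged from -0.36 (GC trend removed) to 0.0073 over 16 alternatives. With quantile normalization the value in hom ΔG cells was -0.48 and not called. Dppa3 (chr6:122576428-122580290) was not called, with differences from -0.39 ± 0.13 to -0.17 ± 0.10. Its rlog values lay between 0.72 and 1.80, where the transformation shrinks differences most.

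**Figure D2:**
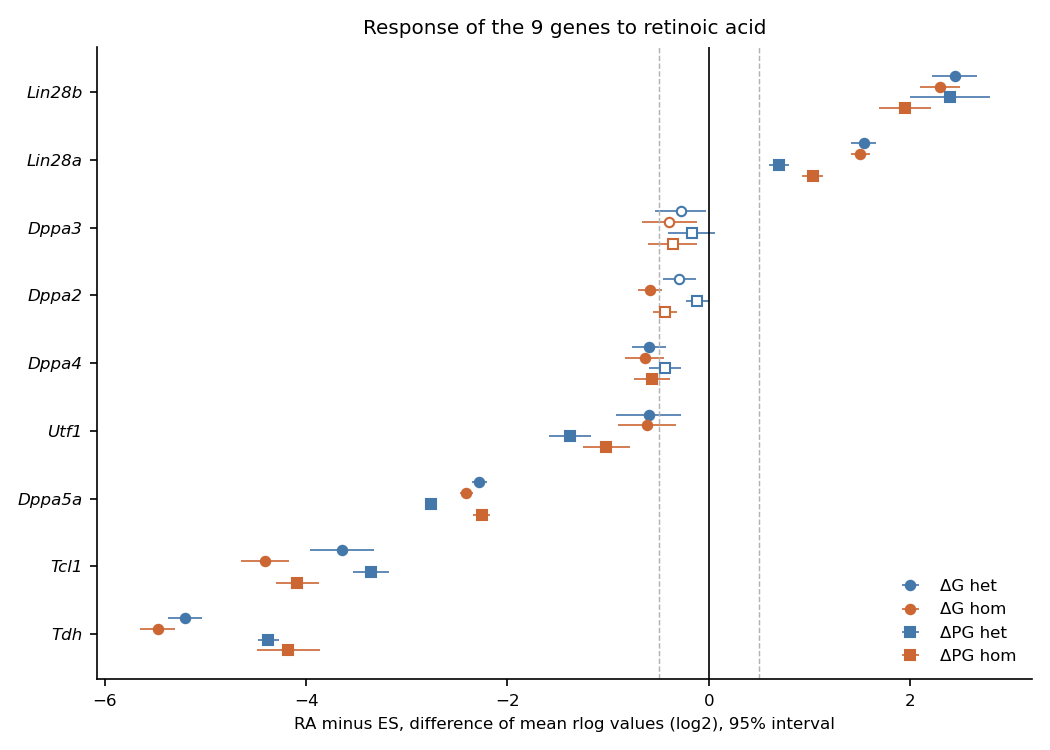
Each point is the difference of mean rlog values (RA minus ES, log2 scale) of 1 gene in 1 cell line with its 95% interval from limma. Filled points passed the test and the limit of 0.5 (dashed lines), and open points did not. Lin28b and Lin28a lie right of the limit in all 4 cell lines, and Utf1, Dppa5a, Tcl1 and Tdh left of it, down to -5.47 for Tdh in hom ΔG cells.

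The next question was whether loss of the remaining allele of 5430416N02Rik went with another level of these genes. In undifferentiated ΔG cells limma called 0 of the 9 genes, beside 0.354% of all genes called higher and 0.630% called lower in hom cells. Of the 9, 5 had an unadjusted p under 0.05, and 4 had an adjusted p under 0.1 with differences below the limit. These were Tdh (0.30 ± 0.03), Tcl1 (0.28 ± 0.05) and Dppa5a (0.16 ± 0.02), higher in hom samples, and Dppa4 (-0.29 ± 0.06), lower, all without overlap between genotypes. Both shares of all genes are for calls with the limit, and none was counted without it or for unadjusted p-values. Dppa3 differed by 0.00 with a 95% interval from -0.22 to 0.23.

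In undifferentiated ΔPG cells Dppa2 and Lin28b were called higher in hom cells, beside 6.87% of all genes called higher and 6.29% called lower. Dppa2 had values of 7.76, 7.88 and 7.77 in het and 8.52, 8.43 and 8.40 in hom samples, a difference of 0.65 ± 0.05 (adjusted p = 4.11e-05). For Lin28b, whose values are given above, the difference was 0.65 ± 0.18 (adjusted p = 0.0265). In this comparison the difference of a gene followed its exonic GC content, with a Pearson r of -0.705 across 11904 genes of 1 set of libraries. Dppa2 (43.9% GC) and Lin28b (40.2% GC) are the members of lowest GC content. With this trend removed, the differences were 0.35 for Dppa2 and 0.07 for Lin28b, and neither was called. Below the limit but with an adjusted p under 0.1 stood Tdh (-0.40 ± 0.02), Dppa5a (-0.37 ± 0.02), Utf1 (-0.34 ± 0.07), Lin28a (-0.24 ± 0.06), Tcl1 (0.28 ± 0.05) and Dppa4 (0.24 ± 0.05), which did not overlap between genotypes. The shares of all genes above are for calls with the limit. None was counted for values below it, so these values only describe the members. Dppa5a was called lower with quantile normalization and with the exonic length trend removed, and its difference reached -0.60 among the alternatives. Utf1, at 63.5% the member of highest GC content, changed its sign to 0.16 when the trend was removed, and Tcl1 moved to 0.47.

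After RA limma called none of the 9 genes between genotypes in either design, and 4 had an unadjusted p under 0.05 in each. In ΔG 0.676% of all genes were called higher and 1.46% lower in hom cells, and in ΔPG 0.241% and 0.605%. Tcl1 had the largest difference of the 9 genes in both, at -0.48 ± 0.17 (adjusted p = 0.0941) in ΔG and -0.45 ± 0.13 (adjusted p = 0.126) in ΔPG cells. An adjusted p under 0.1 was also reached in ΔG by Dppa4 (-0.33 ± 0.10), Dppa2 (-0.20 ± 0.07) and Lin28a (0.14 ± 0.04). In ΔPG only Dppa2 reached it (0.33 ± 0.05, adjusted p = 0.00766), and its difference was 0.32 with the GC trend removed. No share of all genes was counted for values below the limit or for unadjusted p-values. Without RA het replicate 1, RA het replicate 2 or RA hom replicate 3, Tcl1 was called lower in hom ΔG cells, and without RA hom replicate 1 in hom ΔPG cells.

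**Figure D3:**
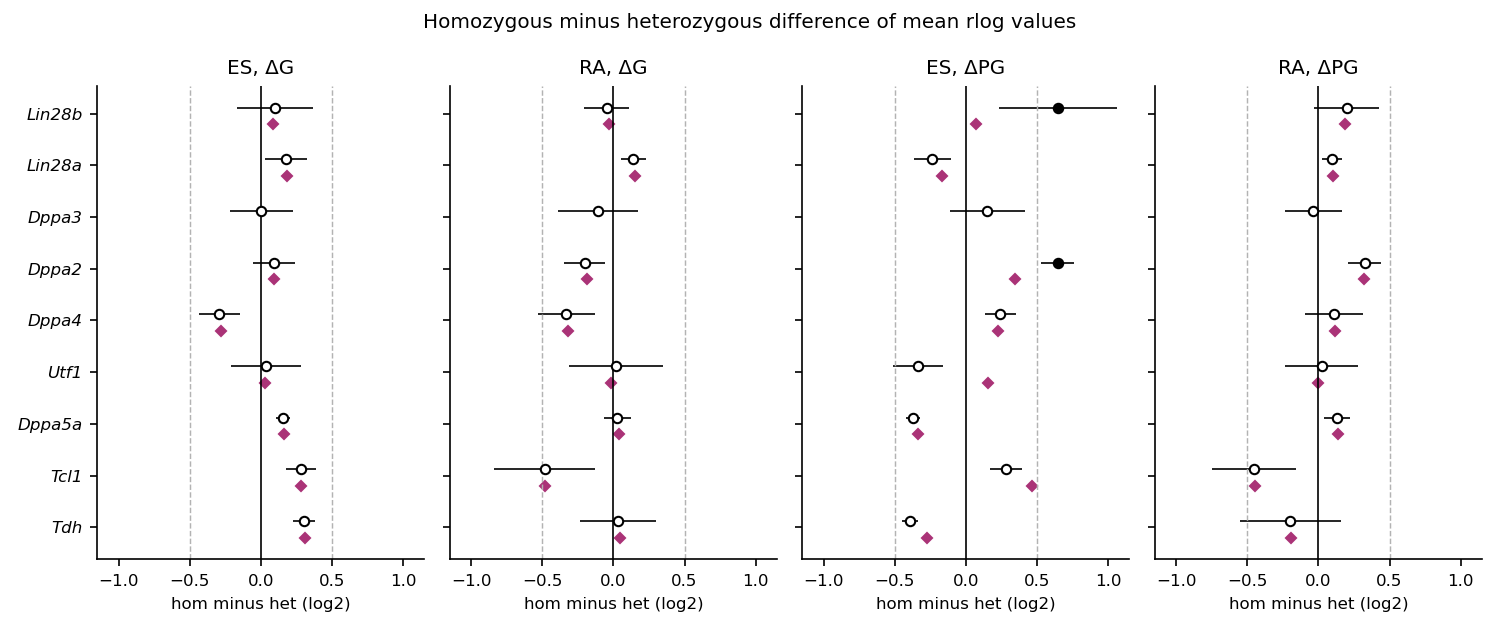
Open and filled circles give the difference of mean rlog values (hom minus het, log2 scale) with its 95% interval, filled where called, and diamonds give the difference after the trend with exonic GC content was removed (not available for Dppa3). Dashed lines mark the limit of 0.5. In ES ΔPG cells the filled circles of Dppa2 and Lin28b at 0.65 move to 0.35 and 0.07.

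The response to RA was then compared between genotypes by an interaction term, fitted to all 12 samples of each table. Tcl1 was called in both tables. In ΔG cells its fall was larger in hom than in het cells (-0.77 ± 0.19, adjusted p = 0.0166), and it was the called member there, beside 1.19% of all genes with a called positive and 1.18% with a called negative difference of responses. In ΔPG cells its fall was again larger in hom cells (-0.73 ± 0.13, adjusted p = 5.86e-04), beside 6.72% and 7.19%. Tcl1 stood higher in hom cells in ES (0.28 in both tables) and lower in RA. With quantile normalization or without a variance trend, the ΔG value had an adjusted p of up to 0.139 and was not called. The ΔPG value was called under all 21 alternatives, with differences from -0.91 to -0.65, and was -0.91 with the GC trend removed. Between RA genotypes, 4 of 12 primitive endoderm markers were called lower in hom ΔG and 6 of 12 in hom ΔPG cells, beside 1.46% and 0.605% of all genes. Their summed level was 13.37 to 13.42 in RA het and 12.76 to 12.78 in RA hom ΔG samples, and 13.08 to 13.10 and 12.37 to 12.40 in ΔPG. Of 5 markers of the 2-cell-like state tested, 5 were called lower in RA hom ΔG and 3 higher in RA hom ΔPG cells. Of all genes, 1.46% were called lower in the first and 0.241% higher in the second comparison. Zscan4c, Zscan4d and Zscan4f among these markers are near-identical copies, so the markers do not count as separate genes. The part of either list in the Tcl1 result was not tested.

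Dppa5a fell by less in hom than in het ΔPG cells, with a difference of responses of 0.501 ± 0.049 (adjusted p = 3.92e-06) at the edge of the limit. It was called under 11 of 21 alternatives, was 0.48 with the GC trend removed, and fell below the limit without any of 7 single replicates, at values from 0.476 to 0.499. In ΔG the corresponding value was -0.13 ± 0.05 (adjusted p = 0.142). For the other 7 genes the difference of responses was not called in either table. Among these, Lin28a rose more in hom ΔPG cells by 0.33 ± 0.07 (adjusted p = 0.0018), below the limit. In the same table Dppa2 had a value of -0.32 ± 0.07 (adjusted p = 0.00394), which was -0.02 with the GC trend removed. Lin28b had a value of -0.45 ± 0.22 (adjusted p = 0.175), was called without ES het replicate 3 or without RA hom replicate 1 (lowest of 21 alternatives -0.66), and changed its sign to 0.11 with the GC trend removed.

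**Figure D4:**
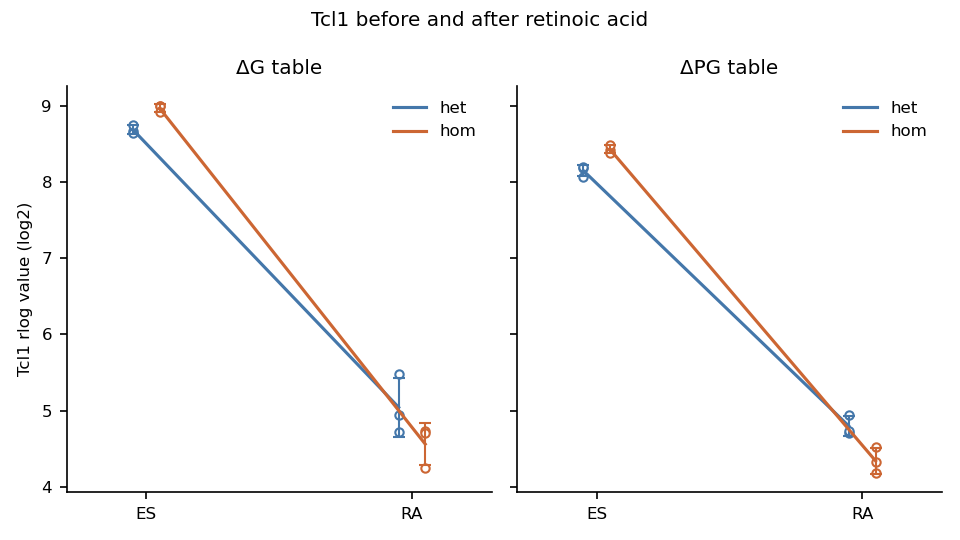
The rlog value of Tcl1 (log2 scale) is plotted in ES and RA samples of the ΔG (left) and ΔPG table (right), with open circles for samples, bars for the SD of 3 samples and lines between group means, blue for het and orange for hom cells. In both tables the lines cross, with hom cells above het cells in ES and below them in RA.

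The pathways around the members were followed with 6 gene lists. Of 24 genes of threonine, glycine and one-carbon metabolism, none was called higher under RA in any cell line, and 15 (het ΔG), 15 (hom ΔG), 16 (het ΔPG) and 15 (hom ΔPG) were called lower. The share of all genes was 16.5% to 18.0% called higher and 11.3% to 13.6% called lower. The median difference of the list lay between -0.902 and -0.735, where that of all genes lay between 0.00521 and 0.0427. Gcat, which acts on the product of TDH, fell, with differences of -1.56 and -1.51 in het and hom ΔG cells and of -1.69 and -1.40 in het and hom ΔPG cells. Psat1, an enzyme of serine synthesis, fell as well (-1.63, -1.72, -1.63 and -1.49 in the same order). Mthfd2, a mitochondrial folate enzyme, had differences of -1.53, -1.63, -1.64 and -1.37. Amt of the glycine cleavage system had differences of -1.48, -1.47, -1.60 and -1.25, and Shmt2, which interconverts serine and glycine, of -1.35, -1.48, -1.75 and -1.03. Between genotypes, Amt was higher in hom ΔG cells in ES (0.54) and in RA (0.55). In ES ΔPG cells 1 gene of the list was called higher and 2 lower, beside 6.87% and 6.29% of all genes. Phgdh (-0.60) was among the lower ones, and 0 of the list were called there once the GC trend was removed.

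**Figure D5:**
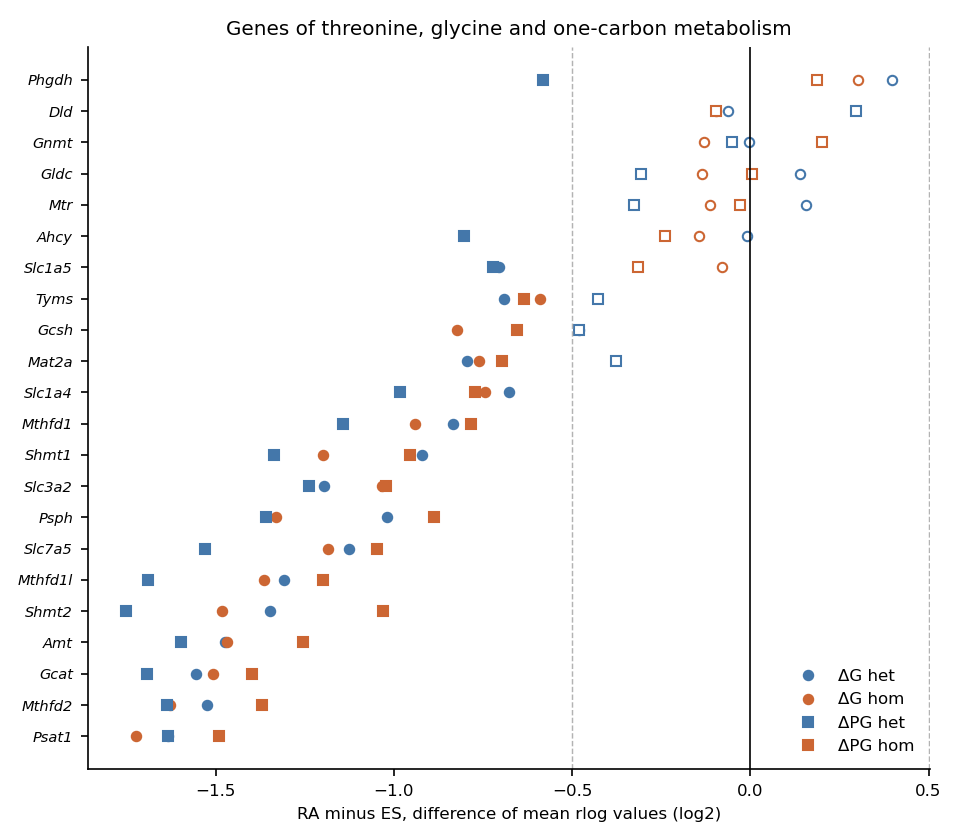
Differences of mean rlog values (RA minus ES, log2 scale) are plotted for 22 of the 24 listed genes of threonine, glycine and one-carbon metabolism, with blue for het, orange for hom, circles for ΔG and squares for ΔPG cells, filled where called. Every called value lies left of -0.5, and Psat1, Mthfd2, Gcat and Amt are left of -1 in all 4 cell lines.

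Of the 23 genes tested around LIN28 and let-7, 6 rose and 1 fell in het ΔG cells, 6 and 2 in hom ΔG, 7 and 3 in het ΔPG and 4 and 1 in hom ΔPG cells, with list medians from -0.0525 to 0.129. Over all genes, 16.5% to 18.0% were called higher and 11.3% to 13.6% lower in these comparisons. Zcchc11 (TUT4), the terminal uridylyltransferase that LIN28A recruits to let-7 precursors, rose with the Lin28 genes by 1.40, 1.52, 1.61 and 1.27 (het ΔG, hom ΔG, het ΔPG, hom ΔPG). Dicer1, which cuts the precursors, rose by 0.80, 0.86, 0.78 and 0.79. Ccnd2 rose by 4.30, 3.58, 3.18 and 3.26 and Ccnd1 fell (-2.03, -1.41, -1.69 and -1.45), both of them D-type cyclins. Both cyclins also differed in their response between ΔG genotypes, Ccnd2 by -0.72 and Ccnd1 by 0.62.

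Around TCL1, AKT and PI3K, 8 of 22 genes rose and 2 fell in het ΔG cells, 9 and 2 in hom ΔG cells, and of 21 tested in ΔPG 8 rose and 1 fell in het and 7 and 2 in hom cells. These counts stand beside 16.5% to 18.0% of all genes called higher and 11.3% to 13.6% called lower. Akt1 rose by 1.52, 1.33, 0.65 and 1.09 in het ΔG, hom ΔG, het ΔPG and hom ΔPG cells. Pik3r3, a regulatory subunit of PI3K, rose by 1.13, 1.35, 1.74 and 1.37. Eras, an ESC-expressed Ras that feeds PI3K, fell, with differences of -1.28, -0.96, -2.11 and -1.49. Akt2 was higher in hom ES ΔG cells (0.54).

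Among 21 partners and known targets of DPPA2, DPPA4 and DPPA3, 10 rose and 6 fell in het ΔG, 8 and 6 in hom ΔG, 9 and 8 in het ΔPG and 9 and 6 in hom ΔPG cells. Of all genes, 16.5% to 18.0% were called higher and 11.3% to 13.6% lower in the same comparisons. The largest rises were in Peg3, an imprinted gene (4.57, 4.80, 4.06 and 3.81 in het ΔG, hom ΔG, het ΔPG and hom ΔPG cells), and in the 2-cell-state genes Zscan4d (3.33, 3.51, 2.36 and 2.75), Zscan4c (2.88, 2.80, 2.26 and 2.41) and Zscan4f (2.79, 2.68, 2.55 and 2.11). The Zscan4 genes are near-identical copies of each other, so their separate values are uncertain. They stood the opposite way between genotypes in the tables. In RA samples Zscan4d was lower in hom ΔG cells (-0.80) and higher in hom ΔPG cells (0.81). In ES ΔG cells Zscan4d (-0.99) and Zscan4c (-0.67) were lower in hom cells too.

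Of 44 genes listed as chromosomal neighbors, 33 lie within 1 Mb of a member on NCBIM37 and 30 of these were tested. Under RA 4 of them rose and 7 fell in het ΔG, het ΔPG and hom ΔPG cells, and 5 rose and 7 fell in hom ΔG cells, beside 16.5% to 18.0% of all genes called higher and 11.3% to 13.6% called lower. Nanog and Gdf3, beside Dppa3 on chromosome 6, fell (-4.61 and -3.05 in het ΔG cells), while Dppa3 itself was not called. Morc1, beside Dppa2, fell (-4.13), and Gata4, a regulator of endoderm in the neighborhood of Tdh, rose by 3.29 in the same cells. In hom ΔG, het ΔPG and hom ΔPG cells Nanog had differences of -4.48, -4.25 and -4.40 and Morc1 of -3.89, -2.98 and -3.52. Gene relatives of the members (9 tested in ΔG and 8 in ΔPG) were called lower in 0, 2, 1 and 1 cases in het ΔG, hom ΔG, het ΔPG and hom ΔPG cells. These were Dppa5b (-0.50) and Ybx1 (-0.55) in hom ΔG, Dppa5b (-4.38) in het ΔPG and Ybx1 (-0.59) in hom ΔPG cells.

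The genes whose values followed each member most closely over the 12 samples of each table were named by the smaller of the Pearson correlations in both tables, among 3554 or 3555 genes. All of these samples share the split between ES and RA, which sets most of each correlation. For Tdh they were Myo1f, Mylpf and Ckb (smaller r of 0.9975, 0.9974 and 0.9967), for Dppa5a Gpx4, Trh and Nars (0.998, 0.9978 and 0.9972) and for Tcl1 Mitf, Asns and Crxos1 (0.9944, 0.9933 and 0.9925). For Lin28a they were Flnc, Myh10 and Plin2 (0.9904, 0.9883 and 0.9882), and for Lin28b Rbms1, Zcchc11 and Pdk3 (0.9881, 0.9861 and 0.9853). Utf1 was followed by Kcnj12, Slco4a1 and Hal (0.9215, 0.9207 and 0.919), Dppa2 by Npm1, Fkbp3 and Nop10 (0.9395, 0.9302 and 0.9239), Dppa4 by Zfand1, Rpl13a and Rps27a (0.954, 0.9414 and 0.9358) and Dppa3 by Obfc2a, Hddc2 and Aldh1l2 (0.8917, 0.8836 and 0.8748). Among the members, Dppa2 correlated with Tdh at 0.90 in ΔG and 0.398 in ΔPG, while Dppa5a and Tdh correlated at 0.999 and 0.992.

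The 4C-seq data list regions that contacted the 5430416N02Rik promoter in ESCs, called in 2 replicates with 339 and 341 regions and no control bait. The paper names mm9 (NCBIM37) for the mapping of these reads, but the deposited coordinates were found to be those of GRCm38. As deposited, 27 of 680 region starts fell in or next to a HindIII site of NCBIM37, and 9 regions ran past a chromosome end. Once the shift of genes within 1.5 Mb between both builds was subtracted, 662 starts did. On GRCm38, 6 of the 9 members overlapped a segment shared by both replicates by 1 bp or more, beside 33.9% of 49943 RefSeq genes. They were Dppa2 and Dppa4, which share the segment chr16:48219885-49594237, Lin28a, Tcl1, Utf1 and Tdh. With the coordinates read as NCBIM37, 5 of the 9 overlapped, beside 34.7% of 33544 genes, and Utf1 did not. The segments are long, for Lin28a chr4:128013208-142975706, so neighboring genes are counted together. Dppa3 lay 937086 bp, Dppa5a 8320490 bp and Lin28b 12735650 bp from the nearest shared segment. Lin28a, which rose under RA, and Tcl1, Tdh and Utf1, which fell, were all among the members overlapping on GRCm38.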

How the data were processed

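RNA-seq libraries were made from total RNA depleted of ribosomal RNA with a stranded kit. The authors aligned reads to mm9 (NCBIM37) with TopHat2 2.1.0, removed duplicates with Picard, counted reads by strand per GENCODE gene name with HTSeq 0.6.0 and deposited rlog values (log2 scale) from DESeq2 1.14.1, in one table per deletion design. Depth per sample cannot be recovered from them, so no interval for counting error is given.

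Rows that did not vary were left out. Groups of 3 samples, taken from the labels, were compared with limma 3.58.1 (R 4.3.3) with a variance trend, 6 samples per comparison and 12 for the interaction, with Benjamini-Hochberg adjustment over all genes tested and limits of 0.1 (adjusted p) and 0.5 (log2 difference). All adjusted p-values in the text are from these fits. The code was tested on simulated data. GC and length trends were fitted by lowess (span 0.3). Near-identical loci were sought with blastn 2.17.0. The deposited 4C-seq regions, given as coordinates with no score used here, were read as GRCm38.

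Named were all 9 members and, per list and comparison, at most 4 genes by size of difference among those called. The 3 genes most like each member were taken among genes whose mean was 3 or more and whose range was 1 or more in both tables. Members and lists were chosen with earlier results of these data known. Alternatives were other limits, a filter on low values, quantile normalization, no variance trend, trend removal, a replicate block and leaving out each replicate. Results for some genes of the lists are not reported here, but the counts include them.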

Additional observations from a re-analysis of the deposited data

Results flagged for a closer look

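The RA response of Tcl1 differed between het and hom cells by -0.77 in ΔG and -0.73 in ΔPG, and that of Dppa5a by 0.50 in ΔPG, each by a test of the interaction in limma. The cause was not tested, and clone and genotype cannot be told apart.

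For 4 genes the hom and het samples stood in opposite order in the ΔG and ΔPG tables, and this difference between tables was not tested. How many of all genes did so was not counted. In RA samples Dppa2 differed by -0.20 in ΔG and 0.33 in ΔPG. In ES samples Dppa4 differed by -0.29 and 0.24, Dppa5a by 0.16 and -0.37, and Tdh by 0.30 and -0.40.

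Among the genes of the 6 lists, the RA response differed between ΔG genotypes for Ccnd2 (-0.72), Ccnd1 (0.62) and Slc1a5 (0.63). Between ΔPG genotypes it was more positive in hom cells for Hmga1 (0.82), Pik3r2 (0.81), Phgdh (0.77), Shmt2 (0.72), Uhrf1 (0.65), 2410004A20Rik (0.64), Ehmt2 (0.63), Ahcy (0.56) and Trim28 (0.50). It was more negative for Sycp3 (-1.06), Gata4 (-0.73), Hmga2 (-0.55) and Morc1 (-0.53). Gata4, Morc1 and 2410004A20Rik are from the list of chromosomal neighbors. Of these, 2410004A20Rik lies 5262609 bp from Dppa5a, its nearest member. In ΔPG the difference of responses followed exonic GC content (Pearson r of 0.695 across 11904 genes). With that trend removed, all of the named ΔPG genes but Gata4 (-1.12) were no longer called. The positive differences then lay between 0.11 (Trim28) and 0.41 (Phgdh). The named ΔG genes were called with the GC trend removed as well.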

How the results depend on the processing

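The 33 called differences of the 9 genes were recomputed under the alternatives, which gave 543 values. Of these 517 were still called in the same direction, 26 were no longer called and 0 changed sign. With no limit on the difference, 4 members were called between genotypes in ES ΔG, 4 in RA ΔG, 8 in ES ΔPG and 1 in RA ΔPG cells, and 2 (ΔG) and 5 (ΔPG) for the interaction. No share of all genes was counted for this setting. With the GC trend removed, 0 were called in ES ΔPG cells (2 as reported) and 1 for the ΔPG interaction, and the same counts came with a replicate block and the GC trend removed. The ΔG interaction called 0 members with quantile normalization and 0 without a variance trend, and the ΔPG interaction called 1 with limits of 0.05 and a 1.5-fold change. Without single replicates, 0 to 1 members were called between genotypes in RA ΔG and in RA ΔPG cells, and 1 to 3 for the ΔPG interaction (3 without ES het replicate 3 and 3 without RA hom replicate 1). Dppa2 in hom ΔG cells was -0.48 and not called with quantile normalization. Deviations from the group means correlated little between samples with the same replicate number (-0.0255 to 0.0855). In ES ΔPG cells these correlations were 0.0855, 0.0103 and 0.0488, and those of other pairs lay between -0.0722 and 0.0159. A replicate block alone left 2 members called in ES ΔPG cells and 2 for the ΔPG interaction. Of 60 counts for the lists recomputed with the GC trend removed, an alternative chosen after seeing the data, 16 moved by more than 1.5 times. Shrinkage of low counts limits what could be seen for Dppa3. The causes were not tested.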
